A study of Mus musculus with 18 samples.

Results

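Collagen chain genes were taken as every gene whose mouse symbol has the form Col, a type number, the letter a and a chain number. The rule found 44 genes among the 55401 gene identifiers of the count table. They comprise 11 fibrillar chains, 6 basement membrane chains, 9 FACIT chains (fibril-associated collagens with interrupted triple helices), 3 network chains, 6 beaded filament chains, 2 multiplexins, 4 transmembrane chains, 1 anchoring fibril chain and 2 other chains. Each was followed across 18 RNA-seq libraries of mouse embryonic fibroblasts (MEFs), primary cells grown from minced mid-gestation embryos without head and viscera. The libraries formed 6 groups of 3 in 2 genetic series. In the S6K1 series, wild-type (WT) cells carried either an empty retroviral vector (EV) or HRASG12V, a constitutively active form of the small GTPase HRAS (RAS), and S6K1 knockout (KO) cells carried RAS. The S6K1/2 series held EV and RAS groups of WT cells and a group of cells lacking both S6K1 and S6K2 (double knockout, DKO), which carried RAS. S6K1 and S6K2, encoded by Rps6kb1 and Rps6kb2, are kinases of ribosomal protein S6 that act downstream of mTORC1. RAS expression in such cells is used as a model of oncogene-induced senescence. WT and KO cells of the S6K1 series came from littermates, whereas WT controls of the S6K1/2 series came from WT mothers of an earlier stage of breeding and were not littermates of the DKO cells. The methods give pBABEpuro as the empty vector and MSCV-neo as the RAS vector, but state that transduced MEFs were selected with puromycin. For RAS cells the named vector and the selection do not match. The vector backbone may therefore also have differed between EV and RAS, which the methods do not settle. None of the 18 libraries came from KO or DKO cells with EV. A difference between genotypes under RAS therefore cannot be told apart from one already present without RAS.

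Collagens are secreted proteins in which 3 chains wind into a triple helix built on a repeated glycine-containing triplet. Fibroblasts make mostly fibrillar collagens of types I, III and V, which assemble into the fibrils of connective tissue, while type IV chains form the sheets of basement membranes and type VI chains form beaded filaments near cells. Chains are hydroxylated, glycosylated and folded in the endoplasmic reticulum, trimmed outside the cell and cross-linked by lysyl oxidases.

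Total counts per library ranged from 8319445 to 14402442, and 3 counts, the limit below which a gene is taken as not detected, came to 0.361 CPM in the shallowest library and to 0.208 CPM in the deepest. CPM are counts scaled to library size, here with the trimmed mean of M values (TMM) within each series. All 11 fibroblast markers examined lay above 3 counts in every group. Rps6kb1 averaged 68.9 ± 6.73 CPM in WT RAS against 30.6 ± 6.74 CPM in KO RAS (SD, n = 3), and Rps6kb2 averaged 25.8 ± 2.67 CPM in WT RAS against 2.83 ± 0.186 CPM in DKO RAS, where Rps6kb1 averaged 37.4 ± 2.69 CPM against 80.5 ± 4.44 CPM in WT RAS. Marker sums of some other cell types moved with the groups. Those of 6 endothelial and 7 osteoblast markers overlapped between WT EV and WT RAS in both series. Endothelial sums in WT EV and WT RAS were 8.62 to 10.3 CPM and 7.70 to 13.6 CPM in the S6K1 series, and 8.83 to 10.1 CPM and 9.39 to 12.5 CPM in the S6K1/2 series. Osteoblast sums were 32.9 to 40.0 CPM and 29.7 to 36.8 CPM, and 33.3 to 48.7 CPM and 36.2 to 45.2 CPM. The summed level of 7 epithelial markers was 4.85 to 10.1 CPM in WT EV and 109 to 149.9 CPM in WT RAS of the S6K1 series, and 1.66 to 4.28 CPM and 79.1 to 120.1 CPM in the S6K1/2 series. In WT RAS of each series 4 of the 7 lay above 3 counts. Krt14 was at 0 in WT RAS of both series, and Krt5 in that of the S6K1 series. Across 6 glial and neural markers the sums were 58.5 to 67.1 CPM and 12.1 to 19.8 CPM in the S6K1 series, and 75.3 to 102 CPM and 16.6 to 25.4 CPM in the S6K1/2 series. Of these 6, 3 lay above 3 counts in WT EV and 6 in WT RAS of the S6K1 series, and 5 and 3 in the S6K1/2 series. For 8 muscle markers, of which Myod1 and Myf5 were at 0, the sums were 56.6 to 86.0 CPM in WT EV and 151 to 168 CPM in WT RAS, and 7.50 to 41.4 CPM and 77.3 to 232 CPM. Of these 8, 3 lay above 3 counts in each group. Myog was also at 0 in WT RAS of both series, and Ckm in that of the S6K1 series. The 14 macrophage markers summed to 744 to 3830 CPM in WT RAS and 246 to 880 CPM in KO RAS, and to 175 to 1033 CPM in WT RAS and 71.5 to 241 CPM in DKO RAS. Whether cells of these types were present, and their part in the collagen results, was not tested. In bulk RNA, fewer cells of a type and less RNA per cell cannot be told apart.

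Collagen chain genes made up a large share of the fibroblast transcriptome, and that share was smaller in RAS cells. In the S6K1 series they took 3.69%, 4.69% and 4.19% of all gene counts in the 3 WT EV libraries and 1.21%, 1.46% and 1.55% in the WT RAS libraries. The corresponding shares of the S6K1/2 series were 5.42%, 4.87% and 3.89% in WT EV and 1.58%, 1.36% and 1.33% in WT RAS. Groups did not overlap in either series. KO RAS libraries held 1.02%, 1.48% and 1.73%, and DKO RAS libraries 0.889%, 1.29% and 1.68%, ranges that enclose those of WT RAS in both series. Col1a1, Col1a2 and Col3a1 together accounted for 56.7% to 62.0% of the members' counts in S6K1 series WT EV and for 64.9% to 77.8% in S6K1/2 series WT EV. In WT RAS they accounted for 54.7% to 57.8% and for 54.4% to 60.0%. These shares are of counts, which grow with transcript length, and they carry no test.

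**Figure D1:**
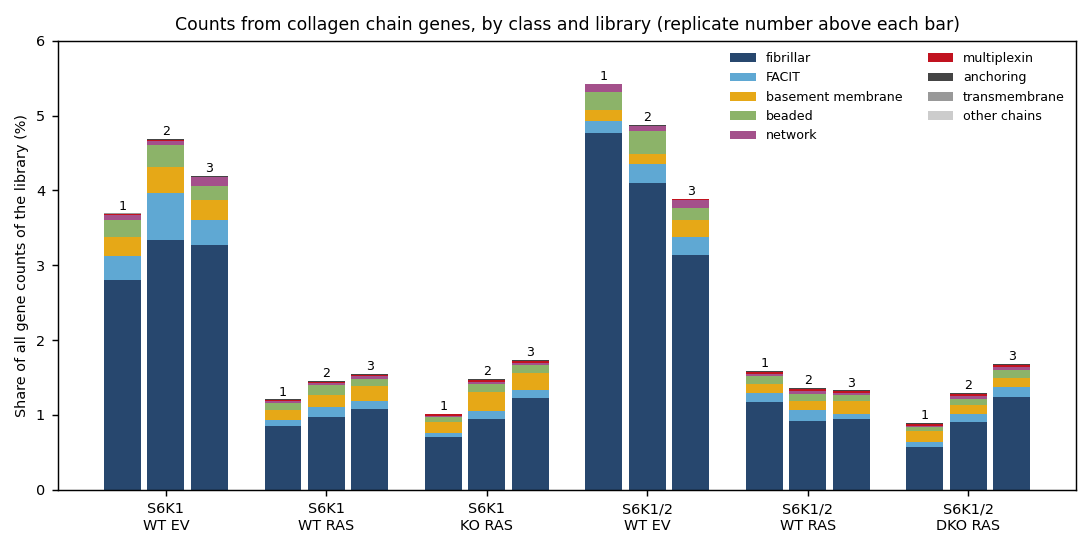
Share of all gene counts, in percent, that came from collagen chain genes in each of the 18 libraries, stacked by collagen class, with the replicate number above each bar. WT EV libraries reach 3.69% to 5.42% and all RAS libraries, of any genotype, stay between 0.889% and 1.73%, with fibrillar chains as the tallest block in every bar.

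The first question was which collagen chain genes differed between RAS and EV in WT cells. In the S6K1 series 17 of the 34 members tested passed an adjusted p of 0.05 (edgeR quasi-likelihood test, Benjamini-Hochberg over all genes tested), against 13.2% of all genes tested. Of these, 15 were lower with RAS, against 6.09% of all genes, and 2 were higher, against 7.15%. Among 35 members tested in the S6K1/2 series, 22 passed, against 26.3% of all genes tested, with 20 lower (12.7% of all genes) and 2 higher (13.5%). The median log2 fold change (log2FC) of the members tested was -0.98 in the S6K1 series and -1.10 in the S6K1/2 series, beside medians of 0.00 and -0.02 over all genes tested. Among the members, 14 passed in both series, 13 of them lower and 1, Col18a1, higher in each, which is 82.4% of the calls of the S6K1 series and 63.6% of those of the S6K1/2 series. Among the 13550 genes tested in both series, 10.1% passed in both. All 3 WT RAS libraries lay below all 3 WT EV libraries for 20 members in each series, against 15.0% and 21.7% of all genes tested, and above them for 3 members in each, against 15.9% and 20.9%.

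With the replicate number as a block, 25 members passed in the S6K1 series against 36.2% of all genes tested, namely the same 17 and 8 more that are given with their class below. The block kept all 22 calls of the S6K1/2 series and added none, against 28.7% of all genes tested. Without WT RAS replicate 2, 11 members passed in the S6K1 series, as Col3a1, Col4a2, Col4a5, Col9a3, Col10a1 and Col14a1 no longer did. Leaving out any other of the 6 libraries compared left 13 to 19 calls. The S6K1/2 series gave 15 calls without WT EV replicate 2, WT RAS replicate 2 or WT RAS replicate 3, and 20 or 21 without any of the others. A further 8 members were tested in neither series because their counts were too low. They were Col13a1, which had at most 2 counts in any library, and Col6a4, Col6a5, Col9a1, Col17a1, Col19a1, Col22a1 and Col26a1, whose highest counts were 5 to 16.

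**Figure D2:**
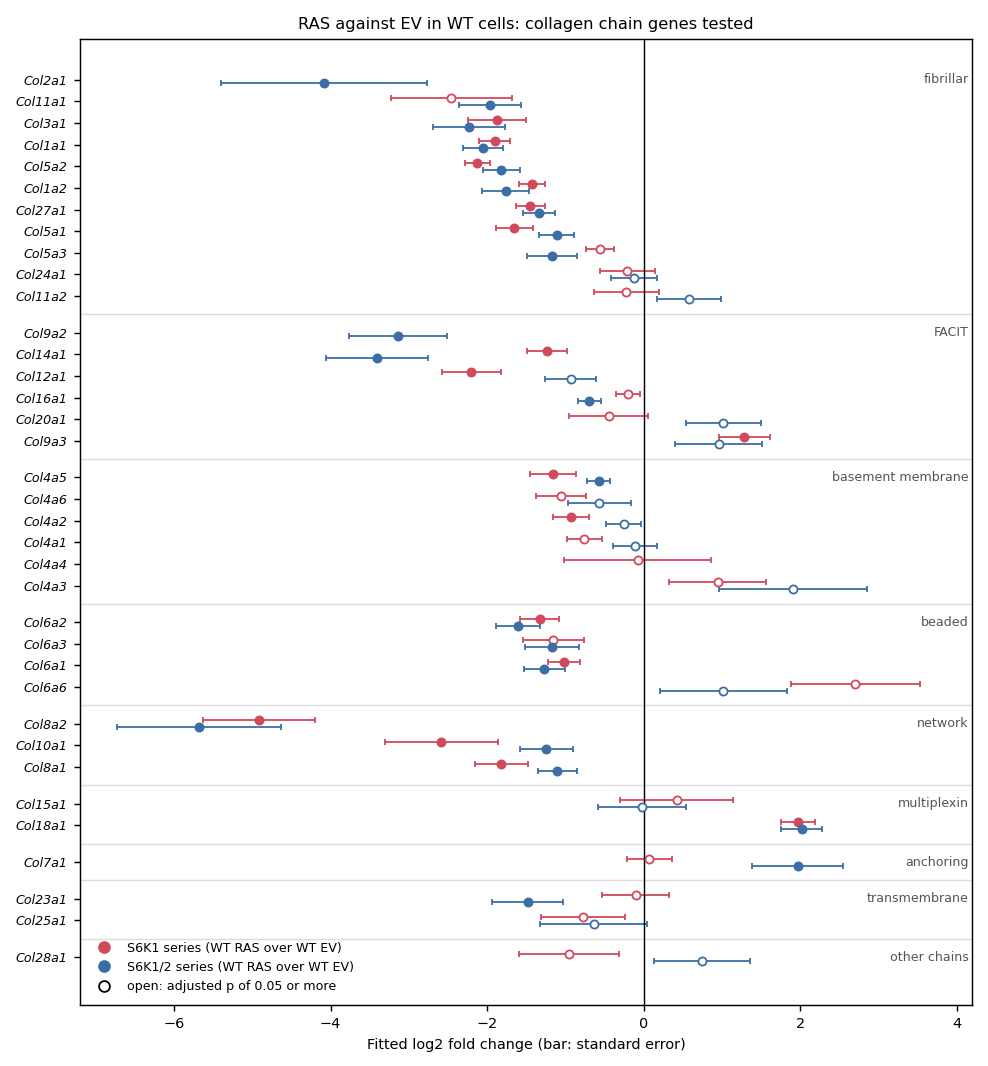
Fitted log2FC of WT RAS over WT EV for each collagen chain gene tested, ordered by class, in the S6K1 series (red) and the S6K1/2 series (blue). Bars are standard errors and open circles mark an adjusted p of 0.05 or more. Most fibrillar, network and beaded chains lie left of 0 in both series, and Col18a1 lies at 1.97 and 2.02.

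Fibrillar chains. Of the 11 fibrillar chains, 6 of the 10 tested passed the test in the S6K1 series and 9 of 11 in the S6K1/2 series, all of them lower with RAS. The shares of all genes tested that passed were 13.2% and 26.3%. Per kilobase of exon, Col1a1 stood highest among members in S6K1 series WT EV, at 1845 CPM per kb, followed by Col1a2 at 742 and Col3a1 at 475 CPM per kb. Col1a1 (identifier ENSMUSG00000001506.10, chr11:94936224-94953042 on GRCm38.p6) encodes the chain present in 2 copies in each type I collagen molecule. Its level was 10501, 13563 and 12259 CPM in WT EV and 2815, 3219 and 3677 CPM in WT RAS of the S6K1 series. The S6K1/2 series libraries had 16255, 13326 and 11824 CPM in WT EV and 3739, 2799 and 3424 CPM in WT RAS. Every RAS library lay below every EV library of its series, with a gap wider than the spread within any of the groups. The gene was 3.74-fold lower with RAS in the S6K1 series (log2FC -1.90 ± 0.20 SE, adjusted p = 0.000483) and 4.16-fold lower in the S6K1/2 series (log2FC -2.06 ± 0.25 SE, adjusted p = 0.000691).

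Col1a2 (ENSMUSG00000029661.16, chr6:4505618-4541543), the partner chain of type I collagen, went from 8482, 9802 and 8756 CPM to 3168, 3458 and 3411 CPM in the S6K1 series and from 12748, 10407 and 7290.3 CPM to 3522, 2801 and 2644 CPM in the S6K1/2 series. Groups did not overlap. The log2FC were -1.43 ± 0.17 SE (adjusted p = 0.00088) and -1.76 ± 0.30 SE (adjusted p = 0.00317). Col3a1 (ENSMUSG00000026043.18, chr1:45311538-45349706) encodes type III collagen, a homotrimer abundant in skin and vessels that forms fibrils together with type I. It stood at 3296, 3579.6 and 5086 CPM in WT EV and 778, 995 and 1494 CPM in WT RAS of the S6K1 series, and at 12388, 9132 and 5429.5 CPM and 2473, 1738 and 1534 CPM in the S6K1/2 series. WT EV replicate 1 of the S6K1/2 series was the highest of all libraries. RAS cells were 3.66-fold lower (log2FC -1.87 ± 0.37 SE, adjusted p = 0.0102) and 4.69-fold lower (log2FC -2.23 ± 0.46 SE, adjusted p = 0.00708). In the S6K1 series the call was lost without WT RAS replicate 2 (log2FC -1.80, adjusted p = 0.0517).

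The windows from 250 bases before to 50 after the annotated start of Col1a2 and Col3a1 are shown because these are the fibrillar chains with the most counts that had a promoter entry (RefSeq, GRCm38.p6, 5′ to 3′ on the strand of the gene). Capitals mark the CCAAT box bound by NF-Y, the TATA box core (TATAAA) and the AP-1 site (TGANTCA), each searched on both strands. Positions give the first base of a match relative to the start base, which is 0.
Col1a2, chr6:4505368-4505667, plus strand: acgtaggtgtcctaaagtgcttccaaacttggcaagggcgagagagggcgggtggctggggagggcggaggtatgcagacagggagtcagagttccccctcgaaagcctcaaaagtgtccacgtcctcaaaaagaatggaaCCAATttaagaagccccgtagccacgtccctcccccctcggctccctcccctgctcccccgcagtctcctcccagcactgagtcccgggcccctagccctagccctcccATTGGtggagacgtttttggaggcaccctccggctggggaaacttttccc
Col3a1, chr1:45311288-45311587, plus strand: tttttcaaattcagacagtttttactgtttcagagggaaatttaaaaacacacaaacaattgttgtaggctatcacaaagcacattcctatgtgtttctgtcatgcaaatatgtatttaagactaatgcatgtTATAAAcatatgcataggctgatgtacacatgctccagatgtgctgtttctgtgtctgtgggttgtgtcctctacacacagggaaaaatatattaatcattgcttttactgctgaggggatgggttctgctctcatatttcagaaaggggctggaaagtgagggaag
Col1a2 held 2 CCAAT boxes, at -109 and 0, and Col3a1 held the TATA box core at -117. The CCAAT box stood in 37.4%, and the TATA box core in 13.6%, of the 32851 mouse promoter windows of this length.

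Type V collagen sits inside type I fibrils and limits their width. Col5a2, the chain found in most type V molecules, was at 3023, 3141 and 3239 CPM in WT EV and 673, 696 and 786 CPM in WT RAS of the S6K1 series, and at 3228, 2784 and 2581 CPM and 1076, 652 and 713 CPM in the S6K1/2 series. In WT EV and WT RAS of the S6K1 series its libraries were closer together, relative to their mean, than those of Col1a1. It was 4.36-fold lower with RAS (log2FC -2.13 ± 0.16 SE, adjusted p = 0.000127) in the S6K1 series and 3.52-fold lower (log2FC -1.82 ± 0.24 SE, adjusted p = 0.000984) in the S6K1/2 series. Its partner Col5a1 averaged 2812 ± 479.7 CPM in WT EV and 896 ± 198 CPM in WT RAS (SD, n = 3), with a log2FC of -1.65 ± 0.24 SE (adjusted p = 0.00229), and 2136 ± 636 and 988 ± 95.0 CPM in the S6K1/2 series, with -1.11 ± 0.22 SE (adjusted p = 0.00637). Col5a1 and the other members of this and the next paragraph were picked after their values were seen. The rarer chain Col5a3 passed in the S6K1/2 series (log2FC -1.17 ± 0.32 SE, adjusted p = 0.0235), a call lost without WT EV replicate 1, WT EV replicate 2, WT RAS replicate 2 or WT RAS replicate 3 (adjusted p of 0.0528 to 0.0853). In the S6K1 series Col5a3 had -0.56 ± 0.18 SE (adjusted p = 0.0766, and 0.0201 with the replicate block).

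Col11a1, a chain of the cartilage fibril collagen XI that also joins type V molecules, was at 209, 319 and 717 CPM in WT EV and 31.5, 47.6 and 148 CPM in WT RAS of the S6K1 series. The libraries of each group spread widely, with replicate 3 far from the others in both. The log2FC was -2.46 ± 0.77 SE with an adjusted p of 0.0698, and the adjusted p was 8.67e-07 with the replicate block. Without WT RAS replicate 3 the log2FC was -3.37 (adjusted p = 0.0271) and without WT EV replicate 3 -1.80 (adjusted p = 0.212). Over the S6K1/2 series Col11a1 had 533, 545 and 537 CPM in WT EV and 112, 143 and 161 CPM in WT RAS (log2FC -1.96 ± 0.40 SE, adjusted p = 0.00687). Col27a1, a fibrillar chain of developing cartilage, was 2.72-fold lower (adjusted p = 0.00146) and 2.52-fold lower (adjusted p = 0.00186) with RAS. Col2a1, the main collagen of cartilage, was near the detection limit in most libraries. It reached 1.05, 4.68 and 30.7 CPM in WT EV and 0.216, 0.238 and 1.57 CPM in WT RAS of the S6K1/2 series, and the groups overlapped. Its log2FC of -4.08 ± 1.32 SE (adjusted p = 0.0457) became -1.99 (adjusted p = 0.204) without WT EV replicate 3, and its adjusted p was 0.0582 to 0.145 without WT EV replicate 2 or any 1 of the WT RAS libraries. Summed over 9 chondrocyte markers, the level was 29.1 to 101 CPM in WT EV and 22.0 to 26.4 CPM in WT RAS of that series, with Snorc and Ucma at 0 in WT EV. Comp went from 72.6, 32.7 and 14.5 CPM in WT EV to 0.324, 0.357 and 0.0925 CPM in WT RAS. Sox9 went the other way, from 19.4, 14.7 and 11.7 CPM to 23.5, 22.2 and 19.1 CPM. Comp was highest in WT EV replicate 1, whereas Col2a1 was highest in replicate 3. In the S6K1 series the chondrocyte sums overlapped, at 18.4 to 24.2 CPM in WT EV and 20.2 to 23.8 CPM in WT RAS. Single markers moved there too. Comp went from 2.29, 0.819 and 8.14 CPM to 0.170, 0.156 and 0.321 CPM. Sox9, the largest part of these sums, went from 18.7, 16.4 and 13.6 CPM to 20.5, 19.4 and 22.3 CPM. Groups of neither marker overlapped. The part of such cells in these values was not tested.

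**Figure D3:**
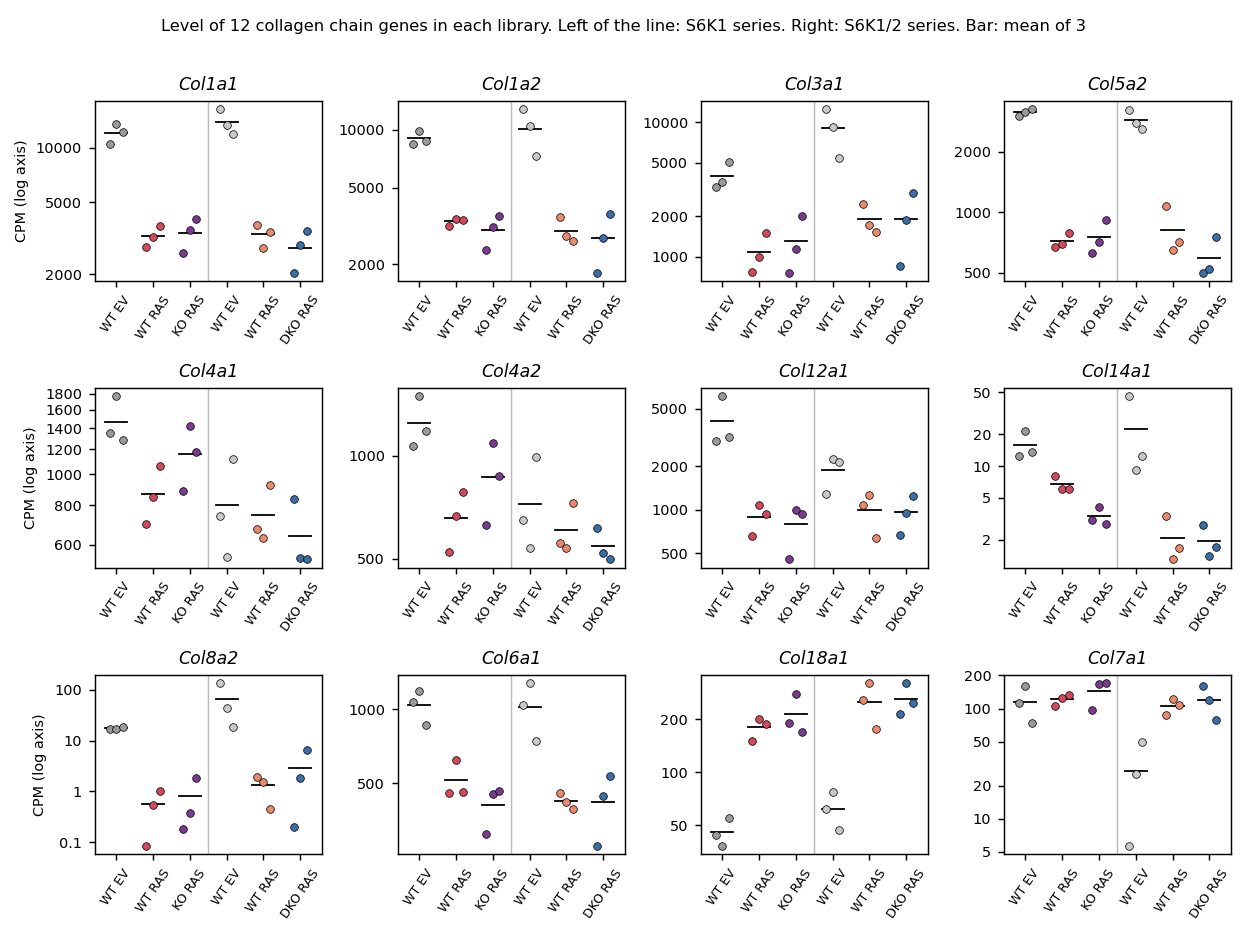
Level of 12 collagen chain genes in CPM on a log axis, 1 point for each library and a bar for the mean of 3, with the S6K1 series left and the S6K1/2 series right of the line in each panel. Points of WT RAS lie below those of WT EV for Col1a1, Col1a2, Col3a1, Col5a2, Col12a1, Col14a1, Col8a2 and Col6a1 and above them for Col18a1, and KO RAS points of Col14a1 lie below those of WT RAS.

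Basement membrane chains. Of 6 basement membrane chains, 2 of the 6 tested passed in the S6K1 series (4 with the replicate block) and 1 of 5 in the S6K1/2 series, all lower. Of all genes tested, 13.2% passed in the S6K1 series (36.2% with the block) and 26.3% in the S6K1/2 series. The class share of 20% in the S6K1/2 series thus lay below that of all genes. Col4a1 and Col4a2, whose products form the type IV heterotrimer found in nearly all basement membranes, lie head to head on chromosome 8 and share the stretch chr8:11312805-11312889 (GRCm38.p6). The strand setting of the counting is not given in the sources used here, so reads within that stretch may be assigned to either gene. Col4a1 had 1351, 1769 and 1289 CPM in WT EV and 696, 849.9 and 1062 CPM in WT RAS of the S6K1 series, and 737, 547 and 1119.6 CPM and 673, 629 and 924 CPM in the S6K1/2 series. Groups were apart in the first series and overlapped in the other. The log2FC was -0.76 ± 0.22 SE (adjusted p = 0.0537, and 0.00302 with the replicate block) in the S6K1 series and -0.11 ± 0.28 SE (adjusted p = 0.804) in the S6K1/2 series.

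Col4a2 had 1072, 1494 and 1184 CPM in WT EV and 525, 666 and 786 CPM in WT RAS of the S6K1 series, and 650.5, 536 and 990.3 CPM and 557, 538 and 727 CPM in the S6K1/2 series. It was 1.90-fold lower with RAS in the S6K1 series (log2FC -0.92 ± 0.23 SE, adjusted p = 0.0287), a call lost without WT EV replicate 2 or 3 or WT RAS replicate 1 or 2 (adjusted p of 0.0603 to 0.102), and had -0.26 ± 0.23 SE (adjusted p = 0.43) in the S6K1/2 series. Both Col4a1 and Col4a2 were highest in WT EV replicate 3 among the EV and RAS libraries of the S6K1/2 series, without which their log2FC were 0.22 and 0.05. Col4a5, a chain of kidney and other specialised basement membranes encoded on the X chromosome, was at 169.6, 246 and 163 CPM in WT EV and 67.7, 86.3 and 105 CPM in WT RAS of the S6K1 series and 96.2, 136 and 122 CPM and 79.2, 80.3 and 79.1 CPM in the S6K1/2 series, with no overlap in either. Its log2FC were -1.16 ± 0.30 SE (adjusted p = 0.0312) and -0.57 ± 0.15 SE (adjusted p = 0.0185). The first call was lost without WT EV replicate 2, WT RAS replicate 1 or WT RAS replicate 2 (adjusted p of 0.105 to 0.112) and the other without WT EV replicate 2, WT RAS replicate 2 or WT RAS replicate 3 (0.0561 to 0.0752). Col4a6, the neighbour of Col4a5, passed with the replicate block but not without it in the S6K1 series (log2FC -1.06 ± 0.33 SE, adjusted p = 0.065, and 0.00163 with the block), and was picked after its values were seen. The remaining chains Col4a3 and Col4a4 had at most 20 and 13 counts in any library.

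The start windows of Col4a1 and Col4a2 are shown because these genes are read in opposite directions from 1 shared stretch of DNA. The windows overlap at chr8:11312777-11312854.
Col4a1, chr8:11312777-11313076, minus strand: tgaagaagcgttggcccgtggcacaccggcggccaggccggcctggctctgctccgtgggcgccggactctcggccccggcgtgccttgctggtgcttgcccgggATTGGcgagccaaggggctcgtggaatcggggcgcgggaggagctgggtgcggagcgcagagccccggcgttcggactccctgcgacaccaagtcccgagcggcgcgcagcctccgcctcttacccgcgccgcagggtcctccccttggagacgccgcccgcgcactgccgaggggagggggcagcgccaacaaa
Col4a2, chr8:11312555-11312854, plus strand: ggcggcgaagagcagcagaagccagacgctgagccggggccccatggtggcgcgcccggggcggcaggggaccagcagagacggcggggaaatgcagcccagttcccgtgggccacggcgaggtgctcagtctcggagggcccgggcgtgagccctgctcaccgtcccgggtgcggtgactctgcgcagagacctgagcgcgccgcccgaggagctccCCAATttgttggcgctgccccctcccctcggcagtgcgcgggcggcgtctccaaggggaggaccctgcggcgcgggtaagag
Each held 1 CCAAT box, at -145 and -32 from the respective start, and neither of the other motifs.

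FACIT chains. These attach to the surface of fibrils and link them to other matrix proteins. Of 9 FACIT chains, 3 of the 5 tested passed in the S6K1 series (2 lower, 1 higher) and 3 of 6 in the S6K1/2 series (all lower), against 13.2% and 26.3% of all genes tested. Col12a1 (collagen XII, found along tendon and ligament fibrils) was at 3010.1, 6119 and 3209 CPM in WT EV and 659.8, 1079.5 and 939 CPM in WT RAS of the S6K1 series, and at 1284, 2259 and 2137 CPM and 1081, 1264 and 633 CPM in the S6K1/2 series. EV libraries lay above RAS libraries in both, more narrowly in the S6K1/2 series. The log2FC were -2.20 ± 0.38 SE (adjusted p = 0.00491) and -0.93 ± 0.32 SE (adjusted p = 0.0585). Without WT EV replicate 1 the latter became -1.15 (adjusted p = 0.0279).

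Col14a1, whose product, undulin, binds decorin on fibrils, had 12.5, 21.5 and 13.7 CPM in WT EV and 8.10, 6.07 and 6.10 CPM in WT RAS of the S6K1 series. For the S6K1/2 series the levels were 46.0, 9.09 and 12.4 CPM and 3.34, 1.31 and 1.67 CPM. WT EV replicate 1 of the S6K1/2 series was well above the other EV libraries. RAS cells were 2.36-fold lower (log2FC -1.24 ± 0.26 SE, adjusted p = 0.0123) in the S6K1 series, a call lost without WT RAS replicate 2 (adjusted p = 0.0608), and 10.6-fold lower (log2FC -3.41 ± 0.65 SE, adjusted p = 0.00529) in the S6K1/2 series, where the log2FC was -2.35 (adjusted p = 0.00488) without WT EV replicate 1. Col16a1, a minor fibril-associated chain of skin and cartilage, had -0.20 ± 0.15 SE (adjusted p = 0.443) in the S6K1 series and -0.69 ± 0.14 SE (adjusted p = 0.0072) in the S6K1/2 series, where its levels were 199, 216 and 192 CPM in WT EV and 145, 129.8 and 100.2 CPM in WT RAS. Type IX collagen coats cartilage fibrils, and its chains had low counts and were picked after their values were seen. Col9a2 had 27, 45 and 17 counts in WT EV and 2, 4 and 2 counts in WT RAS of the S6K1/2 series (log2FC -3.14 ± 0.62 SE, adjusted p = 0.00621). DKO RAS libraries held 1, 5 and 5 counts, so that only the WT EV libraries of this series held 10 counts or more. The gene entered the test through the group in which it was high. Col9a3 moved the other way in the S6K1 series, with 10, 13 and 8 counts in WT EV and 22, 29 and 22 counts in WT RAS (log2FC 1.29 ± 0.33 SE, adjusted p = 0.0311), and the call was lost without any 1 of those libraries other than WT RAS replicate 3 (adjusted p of 0.0657 to 0.119). Col9a3 in the S6K1/2 series had 0.96 ± 0.55 SE (adjusted p = 0.224).

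Network chains. The 3 network chains, short collagens that assemble into hexagonal lattices, passed in both series and were lower with RAS in each. Among all genes tested in both series, 10.1% passed in both. Col8a1, a chain of type VIII collagen of vessel walls and of the membrane under the corneal endothelium, was at 608, 593 and 1013 CPM in WT EV and 170.2, 162 and 295 CPM in WT RAS of the S6K1 series, and at 743, 491 and 864 CPM and 333, 304 and 341 CPM in the S6K1/2 series. It was 3.53-fold lower (log2FC -1.82 ± 0.34 SE, adjusted p = 0.00747) and 2.15-fold lower (log2FC -1.10 ± 0.25 SE, adjusted p = 0.0112). Its partner Col8a2 had the lowest log2FC of the members tested in each series, with levels that went from 16.8, 16.8 and 18.3 CPM to 0.0852, 0.544 and 1.04 CPM in the S6K1 series and from 137, 44.0 and 18.7 CPM to 1.94, 1.55 and 0.463 CPM in the S6K1/2 series. WT RAS libraries held 1, 7 and 13 counts and 18, 13 and 5 counts, against a detection limit of 3, and the WT EV libraries of the S6K1/2 series ranged widely. The log2FC were -4.92 ± 0.71 SE (adjusted p = 0.00233) and -5.68 ± 1.05 SE (adjusted p = 0.00442). They became -5.68 when replicate 3 of S6K1 series WT RAS was left out and -4.60 without WT EV replicate 1 of the S6K1/2 series. Per kilobase of exon, Col8a1 exceeded Col8a2 in WT EV, at 144 against 3.86 CPM per kb in the S6K1 series and 137 against 14.8 CPM per kb in the S6K1/2 series.

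Col10a1, a product of hypertrophic chondrocytes, was at 45.1, 46.8 and 164 CPM in WT EV and 8.35, 4.59 and 29.6 CPM in WT RAS of the S6K1 series, and at 64.3, 119 and 152 CPM and 30.4, 56.6 and 54.9 CPM in the S6K1/2 series. Replicate 3 was far above the other libraries of its group in both groups of the S6K1 series. The log2FC were -2.59 ± 0.72 SE (adjusted p = 0.0445) and -1.24 ± 0.34 SE (adjusted p = 0.0243). For the S6K1 series the log2FC was -1.70 (adjusted p = 0.148) without WT EV replicate 3 and -3.70 (adjusted p = 0.00848) without WT RAS replicate 3, and the adjusted p was 0.0578 to 0.141 without WT EV replicate 2 or WT RAS replicate 1 or 2. The S6K1/2 series call was lost without any 1 library other than WT EV replicate 1 (adjusted p of 0.0529 to 0.0706).

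Beaded filament chains. Col6a1, Col6a2 and Col6a3 encode the 3 chains of the common form of type VI collagen. Of the 6 chains of the class, 2 of the 4 tested passed in the S6K1 series and 3 of 4 in the S6K1/2 series, all lower, against 13.2% and 26.3% of all genes tested. With the replicate block all 4 passed in the S6K1 series, Col6a6 among them as higher, against 36.2% of all genes tested. Col6a1 was at 1072, 1188 and 861 CPM in WT EV and 459, 623 and 463 CPM in WT RAS of the S6K1 series, and at 1039.5, 1280.2 and 743 CPM and 459, 420.0 and 393 CPM in the S6K1/2 series. It was 2.02-fold lower (log2FC -1.01 ± 0.20 SE, adjusted p = 0.0101) and 2.41-fold lower (log2FC -1.27 ± 0.26 SE, adjusted p = 0.00696). Col6a2, its neighbour on chromosome 10, was at 743, 893 and 583 CPM in WT EV and 256, 384 and 244 CPM in WT RAS of the S6K1 series and at 717, 889 and 499 CPM and 260.0, 207 and 224 CPM in the S6K1/2 series. Groups of neither gene overlapped. Col6a2 had log2FC of -1.33 ± 0.25 SE (adjusted p = 0.00804) and -1.61 ± 0.28 SE (adjusted p = 0.00317). Col6a3, the long chain encoded on chromosome 1, had 452, 813 and 443 CPM in WT EV and 168, 279 and 321 CPM in WT RAS of the S6K1 series and 616, 678 and 350.0 CPM and 296, 263 and 169.8 CPM in the S6K1/2 series. Its log2FC was -1.15 ± 0.39 SE (adjusted p = 0.0866, and 0.00181 with the replicate block) in the S6K1 series and -1.17 ± 0.35 SE (adjusted p = 0.0332) in the S6K1/2 series, where the call was lost without WT EV replicate 1 or 2 or WT RAS replicate 2 or 3 (adjusted p of 0.0683 to 0.116). Col6a6, a chain that can take the place of Col6a3 and was picked after its values were seen, had 4, 1 and 4 counts in WT EV and 9, 18 and 32 counts in WT RAS of the S6K1 series (log2FC 2.71 ± 0.82 SE, adjusted p = 0.0611, and 0.00327 with the block) and had 1.01 ± 0.81 SE (adjusted p = 0.38) in the S6K1/2 series, where it was 2.53 (adjusted p = 0.0602) without WT EV replicate 1.

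The start window of Col6a1 is shown because it was the single member window that held the AP-1 site, the letters TGANTCA bound by dimers of FOS and JUN proteins. It stood at -90, and 7.81% of all promoter windows of this length held one.
Col6a1, chr10:76725995-76726294, minus strand: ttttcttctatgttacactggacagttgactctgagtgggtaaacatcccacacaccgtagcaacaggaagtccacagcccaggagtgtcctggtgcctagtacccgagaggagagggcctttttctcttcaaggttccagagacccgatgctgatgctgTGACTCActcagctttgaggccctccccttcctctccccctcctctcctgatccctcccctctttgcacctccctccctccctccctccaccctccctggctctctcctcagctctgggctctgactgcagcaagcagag

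Multiplexin, anchoring, transmembrane and other chains. The multiplexin Col18a1, which encodes a basement membrane proteoglycan whose cleaved end is the angiogenesis inhibitor endostatin, rose with RAS in both series. Its level was 44.1, 38.0 and 55.2 CPM in WT EV and 151, 201 and 187 CPM in WT RAS of the S6K1 series, and 61.4, 77.5 and 47.1 CPM and 256, 323 and 176 CPM in the S6K1/2 series. Every RAS library exceeded every EV library. Col18a1 was 3.93-fold higher (log2FC 1.97 ± 0.22 SE, adjusted p = 0.000667) and 4.06-fold higher (log2FC 2.02 ± 0.26 SE, adjusted p = 0.000876). Per kilobase of exon it went from 6.52 to 25.6 CPM per kb in the S6K1 series and from 8.83 to 35.8 CPM per kb in the S6K1/2 series. The related Col15a1 had at most 25 counts in any library, and its log2FC were 0.42 ± 0.72 SE (adjusted p = 0.755) and -0.02 ± 0.56 SE (adjusted p = 0.983). Col18a1 has 2 start windows in RefSeq, shown because it was the chain called higher in both series.
Col18a1, chr10:77113656-77113955, minus strand: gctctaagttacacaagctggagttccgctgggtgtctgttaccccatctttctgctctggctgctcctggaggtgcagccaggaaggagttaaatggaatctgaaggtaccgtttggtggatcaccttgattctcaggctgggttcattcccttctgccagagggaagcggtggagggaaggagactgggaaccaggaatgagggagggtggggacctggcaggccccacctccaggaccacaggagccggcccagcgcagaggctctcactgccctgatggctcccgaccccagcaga
Col18a1, chr10:77166481-77166780, minus strand: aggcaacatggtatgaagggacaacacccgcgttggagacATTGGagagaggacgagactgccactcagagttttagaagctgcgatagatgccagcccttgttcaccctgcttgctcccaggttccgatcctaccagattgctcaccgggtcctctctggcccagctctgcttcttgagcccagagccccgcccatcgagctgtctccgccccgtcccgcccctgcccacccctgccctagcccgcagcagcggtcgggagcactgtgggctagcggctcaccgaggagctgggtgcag
The downstream window held none of the 3 motifs, and the upstream one held 1 CCAAT box at -210. The counts are per gene and do not say which start was used.

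Col7a1 encodes the chain of the anchoring fibrils that fasten the epidermis to the dermis. Its libraries held 113, 159 and 73.6 CPM in WT EV and 105, 126 and 134 CPM in WT RAS of the S6K1 series, and 5.67, 25.4 and 50.3 CPM and 88.0, 122 and 109 CPM in the S6K1/2 series. The groups overlapped in the S6K1 series (log2FC 0.07 ± 0.29 SE, adjusted p = 0.904). The EV libraries of the S6K1/2 series were lower and ranged widely, and there RAS cells were 3.91-fold higher (log2FC 1.97 ± 0.58 SE, adjusted p = 0.0324). That call was lost without WT EV replicate 2, WT RAS replicate 2 or WT RAS replicate 3 (adjusted p of 0.0769 to 0.0987), and without WT EV replicate 3 the log2FC was 2.79 (adjusted p = 0.00647). It was also lost when only the 6 libraries compared were fitted (adjusted p = 0.0605). Among transmembrane chains, which are shed from cell surfaces, Col23a1 had 81, 56 and 40 counts in WT EV and 12, 16 and 25 counts in WT RAS of the S6K1/2 series (log2FC -1.48 ± 0.45 SE, adjusted p = 0.037), a call lost without any 1 library other than WT EV replicate 3 (adjusted p of 0.0694 to 0.101), and -0.10 ± 0.43 SE (adjusted p = 0.909) in the S6K1 series. Col25a1, known from amyloid plaques, had -0.77 ± 0.54 SE (adjusted p = 0.407, and 0.0358 with the block) and -0.64 ± 0.68 SE (adjusted p = 0.514). Without WT EV replicate 2 of the S6K1 series it was -0.18 (adjusted p = 0.907). Col28a1, a chain related to those of type VI, had -0.95 ± 0.64 SE (adjusted p = 0.394, and 0.0311 with the block) in the S6K1 series and 0.74 ± 0.61 SE (adjusted p = 0.393) in the S6K1/2 series, and without WT EV replicate 3 of the latter 1.72 (adjusted p = 0.0445). Leaving out WT RAS replicate 3 of the S6K1 series gave -1.75 (adjusted p = 0.12). The transmembrane chain Col17a1 of hemidesmosomes had at most 7 counts, and Col26a1 at most 16, in any library.

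Chains that assemble into 1 molecule were also compared within each library, where scaling cancels. The ratio of Col6a1 to Col6a2 counts was 1.44, 1.33 and 1.48 in WT EV and 1.80, 1.62 and 1.90 in WT RAS of the S6K1 series, and 1.45, 1.44 and 1.49 and 1.77, 2.03 and 1.75 in the S6K1/2 series. RAS libraries lay above EV libraries in both series. Col4a1 to Col4a2 counts stood at 1.26, 1.18 and 1.09 in WT EV and 1.32, 1.28 and 1.35 in WT RAS, and at 1.13, 1.02 and 1.13 and 1.21, 1.17 and 1.27, again without overlap. For Col5a1 to Col5a2 the ratio was 0.797, 1.06 and 0.83 in WT EV and 1.07, 1.23 and 1.41 in WT RAS of the S6K1 series, and 0.45, 0.804 and 1.05 and 0.875, 1.42 and 1.54 in the S6K1/2 series, where the groups overlapped. Type I chains went the other way, with Col1a1 to Col1a2 at 1.24, 1.38 and 1.40 in WT EV and 0.889, 0.931 and 1.08 in WT RAS of the S6K1 series, and at 1.28, 1.28 and 1.62 and 1.06, 0.999 and 1.29 in the S6K1/2 series, also with overlap. Between same-numbered libraries, Col1a1:Col1a2 was lower and Col5a1:Col5a2 higher with RAS in all 3 pairs of each series. Col6a3 to Col6a1 counts overlapped in both series. They stood at 0.422, 0.684 and 0.514 in WT EV and 0.367, 0.448 and 0.693 in WT RAS of the S6K1 series. In the S6K1/2 series they stood at 0.593, 0.530 and 0.471 and at 0.644, 0.627 and 0.432. No ratio was tested. Per length of all exons the Col1a1 to Col1a2 ratio averaged 2.48 in S6K1 series WT EV and 2.58 in S6K1/2 series WT EV, and per length of the longest transcript 1.21 and 1.26, so the level of this ratio depends on the gene model.

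**Figure D4:**
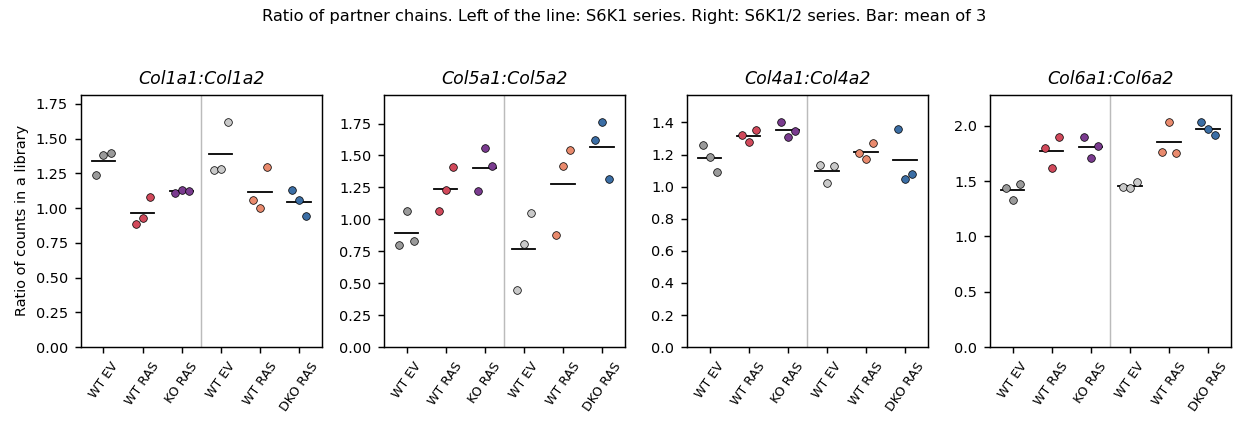
Ratio of the counts of 2 chains of the same collagen in each library, 1 point for each library and a bar for the mean of 3, with the S6K1 series left and the S6K1/2 series right of the line. Col6a1:Col6a2 is 1.33 to 1.49 in WT EV and 1.62 to 2.03 in WT RAS, whereas Col1a1:Col1a2 is lower in RAS than in EV of the S6K1 series.

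Gene structure differed between the classes. In fibrillar genes a median of 83.3% of coding exons (74.6% to 88.5% across the 11 genes) had a length that is a multiple of 9 bases, the unit that encodes 1 glycine triplet. In the 4 transmembrane genes the median was 73.2% (58.5% to 78.6%), a range that overlapped that of the fibrillar genes. The median was 65.2% in FACIT, 49.6% in beaded and 45.1% in basement membrane genes. It was 0% in the 3 network genes, which have only 2 coding exons each. Several members lie side by side on GRCm38.p6. Col3a1 and Col5a2 are separated by 24624 bases on chromosome 1, Col6a2 and Col6a1 by 85161 bases on chromosome 10, and Col4a6 and Col4a5 by 1274 bases on the X chromosome. Between Col6a1, which was lower with RAS, and Col18a1, which was higher, lie 326133 bases. Of 35 members with a promoter entry, 13 held the CCAAT box, 5 the TATA box core and 1 the AP-1 site. Members without an entry were Col1a1, Col2a1, Col4a3, Col5a2, Col9a3, Col12a1, Col14a1, Col22a1 and Col26a1.

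Whether the RAS effect itself differed between the series was tested over all 18 libraries. No member of 36 tested passed (edgeR quasi-likelihood test), and 0% of all genes tested did. A total of 5 members had an unadjusted p under 0.05, against 12.6% of all genes, and 0 members passed by DESeq2, against 0.988%. Those 5 were Col14a1 (difference of log2FC, S6K1/2 minus S6K1 series, -2.18 ± 0.71 SE, adjusted p = 0.277, and 0.0488 with the replicate block), Col7a1 (1.88 ± 0.70 SE, adjusted p = 0.318), Col12a1 (1.26 ± 0.52 SE, adjusted p = 0.353), Col16a1 (-0.50 ± 0.21 SE, adjusted p = 0.355) and Col23a1 (-1.39 ± 0.64 SE, adjusted p = 0.386). Without WT EV replicate 1 of the S6K1/2 series the difference of Col14a1 was -1.13 (adjusted p = 0.482), and without WT EV replicate 3 of that series the difference of Col7a1 was 2.69 (adjusted p = 0.047). With the block, Col14a1 alone passed, against 0.4% of all genes. Each series had its own cells and libraries, so a difference of series and one of batch cannot be told apart.

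The next question was whether loss of S6K1, or of both kinases, altered collagen chain genes in RAS cells. No member passed in either comparison. Of 34 members tested in KO RAS against WT RAS, 0 passed by edgeR, against 0.00712% of all genes tested, with 2 at an unadjusted p under 0.05 (6.86% of all genes) and 0 by DESeq2 (0.449%). Of 35 tested in DKO RAS against WT RAS, 0 passed by edgeR, against 0.0216% of all genes, with 1 at an unadjusted p under 0.05 (1.29%) and 0 by DESeq2 (0.0721%). These comparisons share the WT RAS libraries with the RAS comparisons. Col1a1 was at 2623, 3517 and 4026 CPM in KO RAS, beside 2815, 3219 and 3677 CPM of WT RAS (log2FC 0.07 ± 0.19 SE, adjusted p = 0.997). In DKO RAS it was at 2038, 2889 and 3459.7 CPM (log2FC -0.25 ± 0.24 SE, adjusted p = 1). Col3a1 had 0.26 ± 0.36 SE and -0.01 ± 0.44 SE, Col8a2 0.50 ± 0.82 SE and 1.19 ± 1.13 SE, and Col18a1, at 191, 278 and 169.6 CPM in KO RAS and 214, 319 and 248 CPM in DKO RAS, 0.25 ± 0.21 SE and 0.05 ± 0.25 SE.

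Col14a1 was the member with the smallest p on loss of S6K1. Its level was 8.10, 6.07 and 6.10 CPM in WT RAS and 3.09, 4.13 and 2.83 CPM in KO RAS, and the groups did not overlap. All KO RAS libraries lay below all WT RAS libraries for 2 members, Col14a1 and Col4a6, against 4.17% of all genes tested, and all DKO RAS libraries below all WT RAS libraries for 2, Col4a5 and Col11a2, against 3.05%. The log2FC was -1.01 ± 0.27 SE, with an adjusted p of 0.587 (edgeR), which became 0.0434 with the replicate block, a fit in which 4.15% of all genes passed. In DKO RAS Col14a1 was at 2.77, 1.42 and 1.71 CPM beside 3.34, 1.31 and 1.67 CPM in WT RAS (log2FC -0.10 ± 0.68 SE, adjusted p = 1). The other members with an unadjusted p under 0.05 were Col5a3 in the KO comparison (log2FC 0.45 ± 0.18 SE, adjusted p = 0.636) and Col4a5 in the DKO comparison (-0.42 ± 0.15 SE, adjusted p = 1). Between the effect of DKO and that of KO, no member of 36 differed at an adjusted p under 0.05, against 0.0069% of all genes, and 0 had an unadjusted p under 0.05, against 1.23%, or passed by DESeq2, against 0.00691%. The ranges of the summed macrophage markers, given above, overlapped between KO RAS or DKO RAS and WT RAS with lower upper ends in the knockouts, and their part in these values was not tested.

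**Figure D5:**
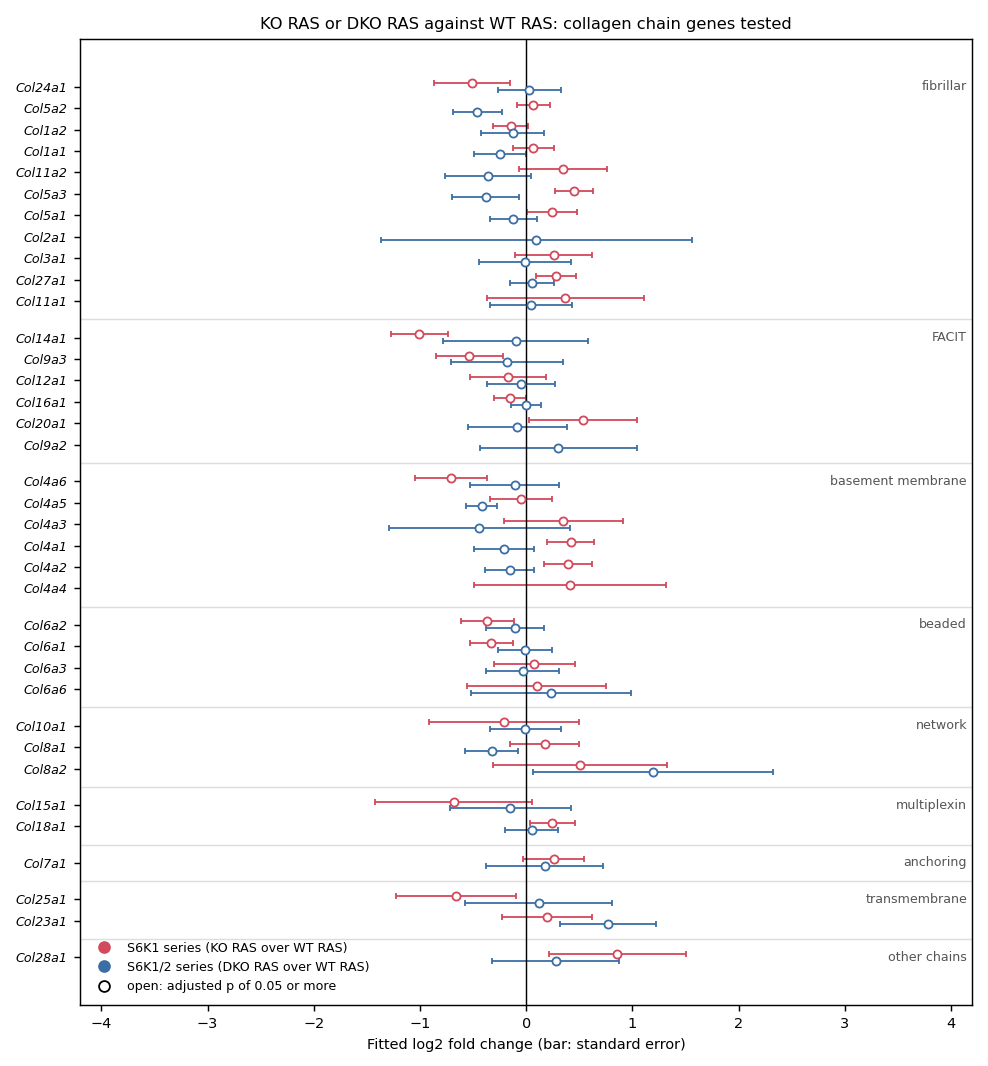
Fitted log2FC of KO RAS over WT RAS (S6K1 series, red) and DKO RAS over WT RAS (S6K1/2 series, blue) for each collagen chain gene tested, ordered by class. Bars are standard errors, and every circle is open because no adjusted p was under 0.05. Col1a1 lies at 0.07 and -0.25, and Col14a1 at -1.01 in the S6K1 series.

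Genes that make, export, cut and bind collagen were followed as lists, whose counts stand beside 13.2% of all genes called for RAS in the S6K1 series and 26.3% in the S6K1/2 series (36.2% and 28.7% with the block). Of 13 prolyl and lysyl hydroxylation and glycosylation genes tested, 6 were lower with RAS in each series and none was higher, with 11 lower in the S6K1 series and 7 lower and 2 higher in the S6K1/2 series under the replicate block. They included the prolyl 4-hydroxylase subunit P4ha3 (log2FC -1.88 ± 0.22 SE, adjusted p = 0.000809, and -1.83 ± 0.42 SE, adjusted p = 0.0121, in the S6K1 and S6K1/2 series) and the prolyl 3-hydroxylase family members P3h3 (-0.76 and -1.06) and P3h1 (-0.64 and -0.74). Of 10 folding chaperones and export genes, 4 were lower in each series (6 in the S6K1 series under the block), among them Serpinh1, the collagen chaperone HSP47, at 2442 ± 214 CPM in WT EV and 1497 ± 102 CPM in WT RAS of the S6K1 series and 2583 ± 487 and 1272 ± 285 CPM in the S6K1/2 series (log2FC -0.71 ± 0.12 SE, adjusted p = 0.00531, and -1.02 ± 0.21 SE, adjusted p = 0.0076). The prolyl isomerase Fkbp7 (-0.75 and -1.05) and the transcription factor Creb3l1 (-0.62 and -1.19), which drives procollagen genes in bone, were lower as well. In the S6K1 series the calls of P3h3 and Fkbp7 were lost without WT EV replicate 1 or 3 or any 1 WT RAS library (adjusted p of 0.0511 to 0.147), and in the S6K1/2 series that of P4ha3 without WT RAS replicate 3 (adjusted p = 0.0528).

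Of 7 propeptide cleavage genes, 2 were lower in the S6K1 series, and 3 were lower and 1 higher in the S6K1/2 series (3 lower and 2 higher in the S6K1 series under the block). The procollagen N-proteinase Adamts2 had -1.10 ± 0.21 SE (adjusted p = 0.00845) and -2.51 ± 0.45 SE (adjusted p = 0.00395), and the C-proteinase enhancer Pcolce -0.78 and -1.18. Among the 5 lysyl oxidases, 4 were lower in the S6K1 series and 2 in the S6K1/2 series. Lox went from 3914 ± 657 to 1005 ± 109 CPM (log2FC -1.96 ± 0.22 SE, adjusted p = 0.000651) and from 3172 ± 302 to 1103 ± 277 CPM (-1.52 ± 0.27 SE, adjusted p = 0.00385), and Loxl1 had -0.96 and -1.10. Of 8 receptors and uptake genes, 1 was higher and 3 lower in the S6K1 series and 2 higher in the S6K1/2 series (2 higher and 5 lower, and 2 higher and 1 lower, under the block). The one higher in both was Itga2, the collagen-binding integrin alpha 2 subunit, which rose from 1.34 ± 0.525 to 46.3 ± 12.8 CPM (log2FC 5.13 ± 0.46 SE, adjusted p = 0.000255) and from 2.01 ± 1.09 to 62.7 ± 17.6 CPM (4.95 ± 0.35 SE, adjusted p = 5.34e-05).

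Of 8 collagen-cleaving proteases, 2 were higher and 1 lower in the S6K1 series, and 3 higher and 3 lower in the S6K1/2 series (under the block 3 higher and 3 lower in the S6K1 series and 4 higher and 2 lower in the S6K1/2 series). The list members Mmp1a and Mmp1b were at or near the limit of 3 counts in WT EV. Mmp1a averaged 55.5 ± 30.8 and 20.7 ± 4.51 CPM in WT RAS of the S6K1 and S6K1/2 series (adjusted p = 0.000375 and 0.000403), and Mmp1b 10.8 ± 5.27 and 4.68 ± 1.27 CPM (adjusted p = 0.00145 and 0.00121). The membrane-bound collagenase Mmp14 was lower, with -0.99 ± 0.15 SE (adjusted p = 0.0025) and -0.92 ± 0.13 SE (adjusted p = 0.00154). No gene of these lists passed in KO RAS or DKO RAS against WT RAS without the block. With the block, 3 passed in KO RAS against WT RAS, a fit that called 4.15% of all genes, and were picked for that, namely Mmp1a (log2FC -0.57 ± 0.49 SE, adjusted p = 0.997, and 0.0139 with the block), the cysteine protease Ctsk (-0.45 ± 0.30 SE, 0.997 and 0.0219) and the lysyl hydroxylase Plod2 (0.51 ± 0.40 SE, 0.997 and 0.0401). Median log2FC with RAS were -0.52 and -0.44 for the hydroxylation list, -0.36 and -0.45 for chaperones, -0.33 and 0.29 for propeptide cleavage, -0.84 and 0.12 for lysyl oxidases, -0.43 and 0.07 for receptors and -0.18 and 1.06 for proteases, in the S6K1 and S6K1/2 series.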

How the data were processed

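RNA was extracted from each MEF culture with TRIzol and sequenced as mRNA libraries. The deposited values are raw read counts per gene. The authors' methods describe single-end TruSeq Stranded mRNA reads demultiplexed with CASAVA, aligned to mm9 with TopHat and counted with HTSeq, whereas the submitters' processing notes name mm10, STAR 2.7.1a and DESeq2 1.28.1. Which of these made the counts, and the strand setting of the counting, are not given in the sources used here. Groups were taken from the labels, which give a series, genotype, vector and replicate number. The study's methods have MEFs of different mothers, but no label ties a library to an embryo or culture, so p-values measure the spread between these samples. Replicate libraries differed beyond sampling noise (lowest chi-square per degree of freedom 7.98 over 18 pairs).

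A separate model was fitted to the 9 libraries of each series with edgeR 4.0.16 in R 4.3.3 (quasi-likelihood F test, TMM, filterByExpr with a minimum count of 10, Benjamini-Hochberg adjustment over all genes tested, threshold 0.05), and differences between series over all 18 libraries. SD and SE are given as such, with n = 3 libraries a group. The collagen chain symbols were matched to 44 identifiers, among them Col26a1 by the older symbol Emid2, while Col21a1 and Mia3 had none. Identifiers with a symbol held 99.1% of counts. Exon lengths came from GENCODE vM1 models on NCBIM37, matched by identifier, and gene positions and promoter windows from RefSeq on GRCm38.p6. The fitting code was tested on simulated counts.

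Same-numbered libraries deviated together in RAS against EV of the S6K1 series (r = 0.72, 0.47 and 0.68 over genes for replicates 1, 2 and 3), in KO RAS against WT RAS (0.72, 0.42 and 0.63) and in RAS against EV of the S6K1/2 series (0.37, 0.29 and 0.32). The fit that blocks on replicate number is therefore given beside a result where it changed the call. Members and gene lists were chosen with earlier results of these data known. Named were, in each class, the 3 members with the highest mean CPM, members called in both RAS comparisons with a log2FC of at least 2 in size in one of them, and members called, with or without the block, for a loss or for a difference between series. For each pathway list up to 3 genes called in both RAS comparisons were named. Members named beyond this rule are marked as chosen after their values were seen, or were named for low counts or, as Col11a2, for groups that did not overlap. Alternatives were DESeq2 1.42.0, other scalings and filters, the block, the libraries compared alone and each library left out. Tables were made with Python 3.11.15 and pandas 2.3.3. Counts limit precision at the low end, where 3 counts were taken as the detection limit for counting error only.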

Additional observations from a re-analysis of the deposited data

How the results depend on the processing

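Counts of collagen chain genes called kept their size within 1.5 times under most alternatives. The count for RAS against EV in the S6K1 series was 11 without WT RAS replicate 2 and ranged from 11 to 19 over libraries left out, 25 with the replicate block, 23 by DESeq2, 20 with no filter and 15 when every library had to hold 10 counts or more. For the S6K1/2 series it ranged from 15 to 21 over libraries left out and was 23 by DESeq2, 25 with no filter and 19 with that stricter filter. The stricter filter removed Col8a2 and Col9a3 from the calls of the S6K1 series. From those of the S6K1/2 series it removed Col2a1, Col8a2 and Col9a2. Fitted to the 6 libraries compared alone, 16 members passed in the S6K1 series, where Col10a1 no longer did (adjusted p = 0.0923). In the S6K1/2 series 19 passed in that fit, as Col2a1, Col5a3 and Col7a1 no longer did (adjusted p of 0.0547 to 0.0642). The block gave 1 call for KO RAS against WT RAS and 1 for the difference in the RAS effect, both Col14a1, and changed no other call of a member beyond those given in the report. That difference also gave 2 calls with no filter (Col7a1 and Col14a1) and 0 to 1 over libraries left out, the 1 being Col7a1 without S6K1/2 series WT EV replicate 3. In DKO RAS against WT RAS the numbers did not pair the samples (r = 0.27, 0.47 and -0.04), replicate 3 did not correlate best with its own number, and the block gave 0 calls against 0 without it. Per length of the longest transcript the ratio of Col1a1 to Col1a2 in WT EV was 1.21 and 1.26 and that of Col6a1 to Col6a2 1.70 and 1.75, against 2.48 and 2.58 and against 2.68 and 2.77 per length of all exons, because the union of exons is longer for Col1a2 and Col6a2.

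In the RAS comparisons, signs turned for 5 members that had not passed. The log2FC over libraries left out ranged from -0.49 to 0.14 for Col23a1 and from -0.17 to 0.38 for Col7a1 in the S6K1 series, and in the S6K1/2 series from -0.49 to 0.29 for Col15a1, from -0.32 to 0.22 for Col4a1 and from -0.43 to 0.045 for Col4a2. By DESeq2 the log2FC of Col15a1 was 0.0006. The cause was not tested. Of the other values for named genes, 1181 kept their direction and side of the threshold, 31 came to pass and 64 no longer passed. Members with few counts had a large SE, so that a missing call does not show that they did not change.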
